A study of Mus musculus with 18 samples.

Results

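The miR-181 that remains when Mir181a-1 and Mir181b-1 are deleted was followed in 6 of the 18 samples of a mouse thymocyte study, 3 libraries of an Ago2 immunoprecipitation (IP) and 3 libraries in which a miR-181-5p enrichment followed that IP. All 6 came from thymocytes of mice aged 6 weeks with the genotype B6.Mirc14tm1.1Ankr, titled miR181a/b-1-KO and called the knockout here. They were chosen by title. The 6 matching libraries of C57BL/6 mice, called wild type, served only as a reference, and the 6 inputs were not analysed here. In miR-eCLIP, ultraviolet light of 254 nm crosslinks RNA to protein, Ago2 is pulled down, and the microRNA (miRNA) is joined to the target fragment inside the same complex. The resulting chimeric read names the miRNA and places its target. The labels do not say whether a library came from 1 animal or from several, or that sample numbers mark separate animals, so p-values measure only the spread between these libraries. Total thymocytes hold all stages of T cell development, and the deletion is not limited by the labels to any of them.

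MiRNAs guide Argonaute proteins to messenger RNAs mainly through the seed, bases 2 to 8 of the miRNA, and lower the stability and translation of the RNAs they pair with. The miR-181 family is abundant in developing T cells, where it is known for setting the sensitivity of the T cell receptor. Its members come from 3 pairs of genes, so that mature miR-181a and miR-181b are also made from Mir181a-2 and Mir181b-2, while miR-181c and miR-181d come from Mir181c and Mir181d.

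The 4 mature sequences, from RefSeq (GRCm38.p6), are shown because the enrichment acted on all of them and the gene counts below separate them; capitals mark the seed.
miR-181a-5p: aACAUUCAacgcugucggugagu
miR-181b-5p: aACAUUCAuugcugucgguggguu
miR-181c-5p: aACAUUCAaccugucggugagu
miR-181d-5p: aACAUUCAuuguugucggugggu
The seed was the same in all 4. Positions are counted from 1 at the 5′ end. From miR-181a to miR-181b the changes were A9U, C10U and A21G, and miR-181b has 1 base more at its 3′ end. From miR-181b to miR-181d the change was C12U, and miR-181d lacks the last base of miR-181b. MiR-181c lacks base 11 of miR-181a, and otherwise matches it. With so few differences, how reads were divided among the members is uncertain.

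The other miRNAs that the results turn on are shown by seed, since some share one. Of 100 other miRNAs tested, 72 had a sequence in the same table.
miR-16-5p: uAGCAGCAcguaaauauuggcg
miR-15a-5p: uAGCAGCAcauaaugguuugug
miR-15b-5p: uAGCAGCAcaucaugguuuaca
miR-142a-3p: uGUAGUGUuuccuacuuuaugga
let-7b-5p: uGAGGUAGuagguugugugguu
let-7f-5p: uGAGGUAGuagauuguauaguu
miR-25-3p: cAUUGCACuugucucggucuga
miR-24-3p: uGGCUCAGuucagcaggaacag
miR-671-5p: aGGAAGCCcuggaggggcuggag
miR-423-5p: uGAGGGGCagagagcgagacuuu
MiR-15a, miR-15b and miR-16 share the seed AGCAGCA, and let-7b and let-7f share GAGGUAG.

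The knockout labels were checked on the deleted hairpins. Mir181a-1 and Mir181b-1 received 0 reads in all 6 knockout libraries, against 1287 and 552 reads in the pooled wild-type Ago2 IP libraries. MiR-181a-1-3p, the strand opposite miR-181a in the deleted hairpin, had 0 reads in the knockout and 25, 18 and 7 in the wild-type Ago2 IP. Totals were 60789, 67639 and 52100 chimeric reads for the knockout Ago2 IP and 12186, 19264 and 6832 for the enriched libraries. The mean difference in log2 total, enriched minus Ago2 IP, was -2.35, and the groups did not overlap (exact two-sided permutation test, p = 0.1, the smallest that 3 against 3 allows). A count of 3 reads corresponded to between 0.00444% and 0.00576% of an Ago2 IP library and to between 0.0156% and 0.0439% of an enriched one. Repeats, lines with the position, strand and miRNA of another line, made up between 3.24% and 3.53% of the Ago2 IP reads and between 5.84% and 7.91% of the enriched reads. Of 13 thymocyte markers 12 had reads, and the 5 markers of thymic epithelium had 0. Markers of B cells, myeloid cells and erythroid cells had between 1 and 7 reads a list in either group.

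Enriched libraries 2 and 3 differed by little more than counting noise, with a chi-square p of 0.127 over miRNAs and 0.202 over gene spans, while every other pair within a group gave 0.036 or less. These p-values also follow the number of features. Over gene spans, chi-square per degree of freedom was 1.095 for this pair (149 spans), 1.104 for Ago2 IP libraries 2 and 3 (1416) and 1.114 for 1 and 3 (1318). Over miRNAs it was 1.26 for enriched libraries 2 and 3 and from 1.47 to 2.24 for the other pairs. Enriched libraries 2 and 3 were kept as separate samples because the labels list them so and their totals differ. Counts of calls with both taken as 1 sample stand beside the results below.

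The family was a small minority of the reads in the Ago2 IP and most of the library after the enrichment. MiR-181a-5p, b-5p, c-5p and d-5p together made up 1.32%, 1.39% and 1.44% of the Ago2 IP libraries and 70.5%, 72.6% and 72.6% of the enriched libraries. The means were 1.38% ± 0.0595 and 71.9% ± 1.24 (SD, n = 3), a ratio of 52.0. The wild type went from 31.1% ± 1.09 to 99.0% ± 0.207 (n = 3). In bulk libraries, fewer cells with a miRNA and fewer complexes per cell cannot be told apart.

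All 4 members were higher after the enrichment, miR-181d least. MiR-181a-5p had 296, 328 and 279 reads in the Ago2 IP and 3930, 6409 and 2219 in the enriched libraries, and its share was 0.502% ± 0.0286 and 32.7% ± 0.535 (n = 3), a ratio of 65.0. MiR-181b-5p had 0.282% ± 0.0154 and 14.1% ± 1.05, a ratio of 49.9. MiR-181c-5p had 0.306% ± 0.0133 and 16.0% ± 0.275, a ratio of 52.3. MiR-181d-5p had 166, 194 and 166 reads and then 1068, 1833 and 622, with shares of 0.293% ± 0.0234 and 9.13% ± 0.376, a ratio of 31.2. No Ago2 IP library came near an enriched one for any member, and each exact p was 0.1 (0.1 adjusted over 8 shares). In the fit over miRNAs with edgeR's quasi-likelihood test with 89 of 100 miRNAs (89.0%) free of overlap between the groups, the log2 fold changes were 7.63 (SE 0.10) for a, 7.31 (0.10) for c, 7.24 (0.11) for b and 6.57 (0.11) for d, with Benjamini-Hochberg adjusted p-values of 2.33e-20, 2.33e-20, 4.26e-20 and 1.91e-19. The fitted values are on another scale than the share ratios and exceed them. The fit multiplied library sizes by TMM factors, from 1.72 to 1.76 for the Ago2 IP and from 0.531 to 0.599 for the enriched libraries.

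Ratios between 2 members of a library do not depend on its total. The log2 ratio of miR-181d to miR-181a was -0.83, -0.76 and -0.75 in the Ago2 IP and -1.88, -1.81 and -1.84 after the enrichment, a mean difference of -1.06. The difference was -0.68 for d to b and -0.75 for d to c. It was -0.38 for b to a and -0.31 for c to a. These 5 ratios did not overlap between the groups, and each had an exact p of 0.1 (0.12 adjusted over 6 ratios). The ratio of c to b overlapped, with a mean difference of 0.07 (exact p = 0.5). In the wild type the same differences were -1.14 for d to a, -0.77 for d to b, -0.71 for d to c, -0.37 for b to a, -0.43 for c to a and -0.06 for c to b. MiR-181d therefore made up 21.1% ± 0.853 of the knockout's miR-181 reads in the Ago2 IP and 12.7% ± 0.363 after the enrichment, and miR-181a 36.3% ± 1.25 and 45.4% ± 0.627 (n = 3).

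**Figure D1:**
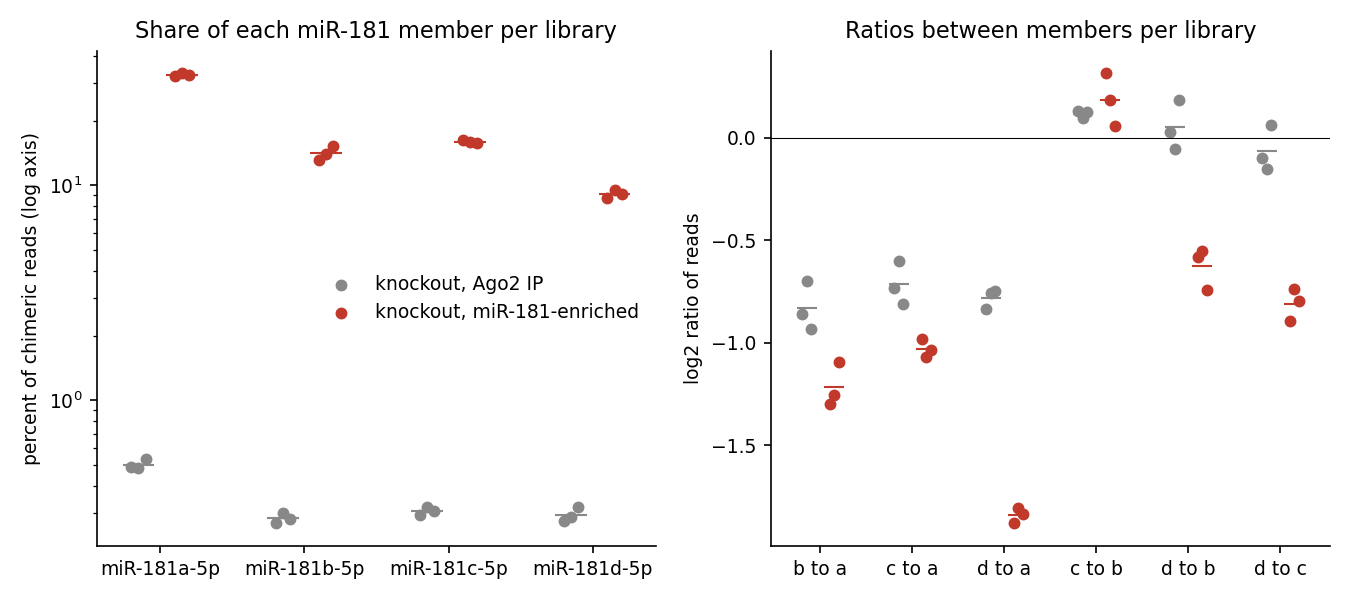
Left, the share of chimeric reads of each miR-181-5p member in percent on a log axis; right, log2 ratios of the reads of 2 members. Points are single knockout libraries and lines are means of 3; the enriched libraries lie above the Ago2 IP for all 4 members, and the ratio of d to a lies near -0.78 in the Ago2 IP and near -1.84 after the enrichment.

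Which other miRNAs the enrichment carried along or depleted was asked among the reads outside the miR-181-5p family, which numbered 59986, 66699 and 51350 before the enrichment and 3600, 5282 and 1870 after it. Of 100 miRNAs tested, 12 (12%) were called at an adjusted p of at most 0.05, 5 higher (5.0%) and 7 lower (7.0%), and 29 had an unadjusted p under 0.05. The groups did not overlap for 38 (38.0%). With library sizes alone in place of TMM factors, which moved the median log2 fold change from -0.03 to 0.13, 12 were higher and 6 lower, and DESeq2 called 8 higher and 7 lower. With the family kept in, 21 of 100 miRNAs (21.0%) were called, 11 higher (11%) and 10 lower (10%). Library sizes alone then gave 4 higher and 86 lower, with a median of -1.67 against -0.06.

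MiR-16-5p and miR-15a-5p fell. MiR-16-5p, known for restraining the cell cycle, had 3451, 3695 and 2885 reads in the Ago2 IP and 135, 223 and 67 in the enriched libraries. Its share of the other-miRNA reads went from 5.64% ± 0.108 to 3.85% ± 0.331 (n = 3), and the fitted log2 fold change was -0.68 (SE 0.09; adjusted p from edgeR, 1.61e-04). MiR-15a-5p, made from the same transcript as 1 copy of miR-16, had 122, 131 and 103 reads and then 3, 3 and 0, a log2 fold change of -1.99 (SE 0.44, adjusted p = 0.0103). Each enriched library lay below each Ago2 IP library for both. MiR-15a-5p would not have passed the filter on the enriched libraries alone. Of the 3 tested miRNAs with this seed, 2 were called lower, against 7.0% of all 100, and miR-15b-5p was not, at -0.33. MiR-142a-3p, a miRNA of blood cells and the most abundant one here, took 40.1% ± 1.03 of other-miRNA reads in the Ago2 IP and 35.0% ± 1.36 after the enrichment, a log2 fold change of -0.36 (SE 0.06, adjusted p = 0.00261).

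The remaining lower calls lay mostly among the miR-466, miR-467 and miR-669 names, miRNAs of a repeated cluster whose copies are close to identical, so that the split of reads among them is uncertain. MiR-466a-3p had 169, 183 and 142 reads and then 4, 5 and 2, a log2 fold change of -1.59 (SE 0.31, adjusted p = 0.00406). MiR-669o-3p followed at -1.26 and miR-466p-3p at -1.70, the latter a miRNA that would not have passed the filter on the enriched libraries alone. Of 10 tested names of this cluster ending in 3p, 3 were called lower, against 7.0% of all 100, with a median of -1.08 against -0.03. Of its 10 other tested names, 0 were called, with a median of -0.10.

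Among the let-7 miRNAs, which in general restrain growth, let-7b-5p was called higher. It had 1217, 1120 and 1070 reads and then 119, 141 and 55, a share of 1.93% ± 0.219 and 2.97% ± 0.319 and a log2 fold change of 0.45 (SE 0.12, adjusted p = 0.0278). Let-7f-5p was called lower at -0.31 (SE 0.09, adjusted p = 0.0352), and its shares overlapped. Of 8 tested miRNAs with the let-7 seed, 1 was called higher and 1 lower, beside 5.0% and 7.0% of all 100, which shows no direction for the family. Let-7 sequences differ by few bases, as the pair shown above does, so that how reads were divided among them is uncertain.

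The other higher calls were miR-25-3p at 0.50, miR-24-3p at 0.55, miR-423-5p at 0.63 and miR-671-5p at 0.91. MiR-24-3p had 413, 437 and 316 reads and then 35, 54 and 25, a share of 0.653% ± 0.0366 and 1.1% ± 0.198 with no overlap. MiR-671-5p had 86, 88 and 70 reads and then 10, 16 and 5. None of the 5 tested miRNAs of the miR-17 seed was called, although 2 of them, miR-17-5p and miR-20a-5p, are among the 5 most abundant here, with log2 fold changes of -0.03 and 0.07. Let-7a-5p, the last of these 5, had -0.03.

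Leaving out single libraries changed the higher calls. Without enriched library 1, 4 miRNAs were called, 0 higher and 4 lower. Without library 2 or library 3, 8 were called each, 1 higher and 7 lower. Without Ago2 IP library 2, 9 were higher and 10 lower. With enriched libraries 2 and 3 as 1 sample, 2 were higher and 7 lower, and with repeats counted once, 2 and 5. MiR-16-5p, miR-142a-3p, miR-466a-3p and miR-15a-5p were called lower in each of the 13 alternatives run, from -0.93 to -0.52 for miR-16-5p and from -0.61 to -0.19 for miR-142a-3p.

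Whether the enrichment moved other miRNAs differently in the knockout and the wild type was tested directly. The edgeR interaction term called 0 of 87 miRNAs (0.0%), with 6 at an unadjusted p under 0.05, and DESeq2 called 0. MiR-16-5p went from 5.87% to 3.99% of other-miRNA reads in the wild type, and the difference of its log2 fold change between knockout and wild type was 0.01 (SE 0.13). MiR-669o-3p had the smallest p, with a difference of -1.19 (SE 0.45, unadjusted p = 0.00768, adjusted p = 0.65), and its wild-type share was 0.332% before and 0.380% after the enrichment. MiR-142a-3p had 40.0% and 39.4% in the wild type and a difference of -0.18 (SE 0.09, unadjusted p = 0.0344, adjusted p = 0.66). MiR-15a-5p gave a difference of -1.46 (SE 0.74, adjusted p = 0.66) and miR-423-5p one of 0.77 (SE 0.34, adjusted p = 0.65). The error for miR-16-5p was small beside its call of -0.68. For the other miRNAs of this paragraph, the errors leave room for differences of the size of their calls.

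**Figure D2:**
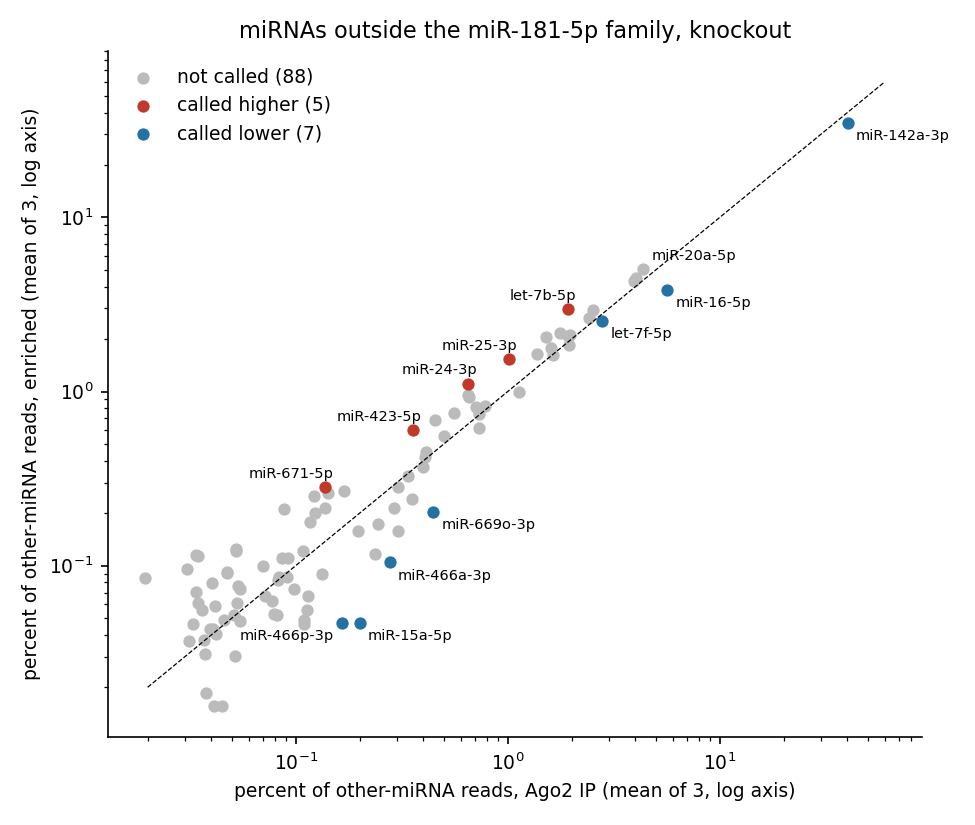
Mean share of each of 100 miRNAs outside the miR-181-5p family among other-miRNA reads, in percent, in 3 knockout Ago2 IP libraries against 3 enriched ones, both axes log; the dashed line marks equal shares. The 5 called higher lie just above the line, and the lower calls reach furthest below it at miR-15a-5p and miR-466p-3p.

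Targets were compared first as reads of any miRNA per gene span, the stretch from start to end of a RefSeq gene. Here 93.1% of knockout reads fell into a single span, and in genes with a known strand 97.7% of reads lay on it. Exons, introns and untranslated regions were not analysed here. Of 797 gene spans tested, 164 (20.6%) were called, 127 higher (15.9%) and 37 lower (4.64%), and the groups did not overlap for 332 (41.7%). Library sizes alone gave 117 higher and 88 lower, with a median log2 fold change of -0.24 against -0.05, and DESeq2 gave 110 and 14. With enriched libraries 2 and 3 as 1 sample, 164 were higher and 50 lower.

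The genes called higher had the larger miR-181 share in the wild type at the median, given here as a description. In the wild-type Ago2 IP libraries, which the fit did not use, miR-181 held a median of 52.6% of the reads of the higher genes and over 50% in 65 of 122 genes with at least 10 reads there. For the lower genes the median was 19.0%, with 0 of 37 above 50%, and for the genes not called it was 27.3%, with 7 of 632. In the knockout enriched libraries miR-181 held 89.2% of the reads of the higher genes, 51.6% of those of the lower genes and 66.0% of the rest.

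**Figure D3:**
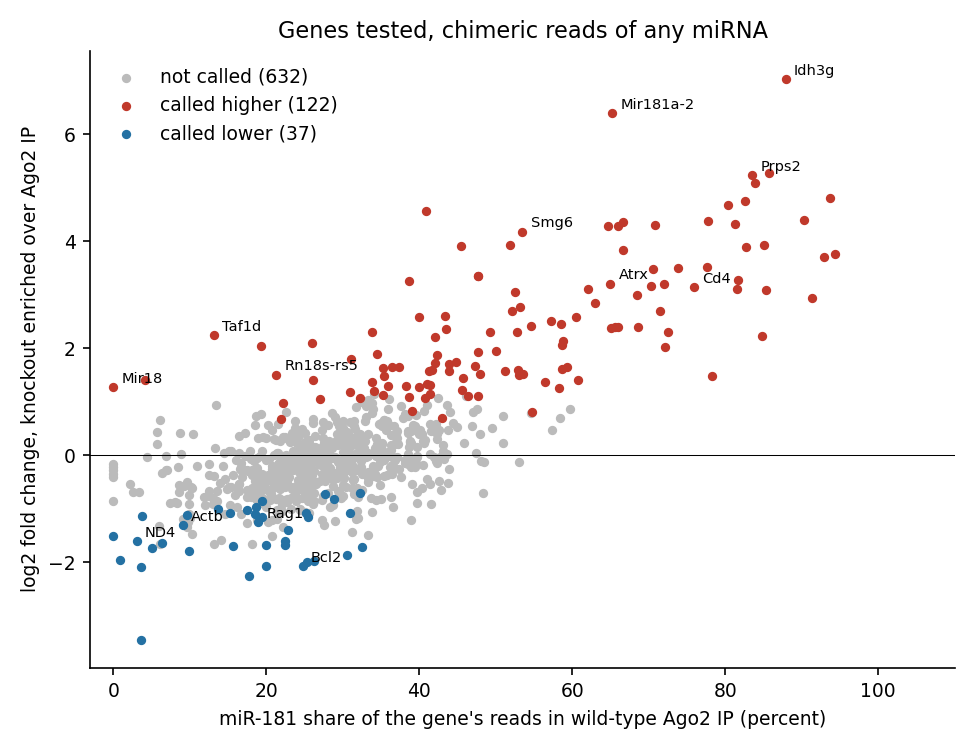
Each point is a gene with at least 10 reads in the pooled wild-type Ago2 IP libraries: the miR-181 share of its reads there, in percent, against its log2 fold change between knockout enriched and knockout Ago2 IP libraries. The 122 genes called higher spread to the right, around a median of 52.6%, and the 37 called lower lie to the left, around 19.0%.

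Of the higher genes described here, Idh3g, a subunit of the citric acid cycle enzyme isocitrate dehydrogenase, had the largest log2 fold change. Idh3g passed the filter only through the enriched libraries, so its rank and p-value carry that selection. It had 5, 2 and 5 reads in the Ago2 IP and 104, 155 and 50 in the enriched libraries, at a log2 fold change of 7.04 (SE 0.24; adjusted p from edgeR, 1.36e-52). All of its enriched reads were miR-181, 44.7% of them repeats, and 293 of them, 94.8%, lay at chrX:73780049-73780304 (mm10). Smg6, an endonuclease of nonsense-mediated decay, had 32, 33 and 25 reads and then 103, 130 and 67, a log2 fold change of 4.18 (SE 0.18), with 36.3% repeats after the enrichment. Its largest site, chr11:74931458-74931628, held 195 of its miR-181 reads. In the knockout Ago2 IP, miR-142a-3p was the leading miRNA on Smg6, with 43.3% of the reads.

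Cd4, the co-receptor of helper T cells, had 44, 43 and 35 reads and then 51, 98 and 50, a log2 fold change of 3.14 (SE 0.19), and 170 of its enriched miR-181 reads lay at chr6:124865894-124866267. Atrx, a chromatin remodeller, had 47, 44 and 32 reads and then 92, 94 and 26, a log2 fold change of 3.21, with 157 reads at chrX:105887707-105887828. Prps2, an enzyme of nucleotide synthesis, had 2, 6 and 5 reads and then 29, 52 and 15, a log2 fold change of 5.24 (SE 0.33), with 92 of 96 miR-181 reads at chrX:167352180-167352284. Like Idh3g, Prps2 passed the filter only through the enriched libraries. Pik3r1, the regulatory subunit of phosphoinositide 3-kinase, had a log2 fold change of 3.10, with 109 reads at chr13:101702754-101702839, and Ptbp3, an RNA-binding protein, one of 3.20, with 104 reads at chr4:59493284-59493353. As a share of the library, each enriched library lay above each Ago2 IP library for these genes, although for Cd4, Atrx and Pik3r1 the raw counts of the groups are close because the enriched libraries are smaller. MiR-181 made up between 95% and 100% of the enriched reads of Cd4, Atrx, Prps2, Pik3r1, Ptbp3 and Smg6.

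Of the 8 lower genes named here, 7 had miR-142a-3p as their leading miRNA in the Ago2 IP, as did the 7 higher genes above. MiR-142a-3p held 39.6% of all knockout Ago2 IP reads, and the share of all tested genes that it led is not reported here. On Idh3g and Prps2 its lead rests on few reads. Rag1, a subunit of the recombinase that assembles T cell receptor genes, had 151, 158 and 125 reads and then 13, 17 and 4, a log2 fold change of -1.24 (SE 0.24, adjusted p = 1.3e-05), and miR-142a-3p held 67.3% of its Ago2 IP reads. Actb, cytoplasmic actin, had -1.31 and ND4, a mitochondrially encoded subunit of respiratory complex I, -1.60. Rev3l, the catalytic subunit of DNA polymerase zeta, had -2.26, Rsrp1 -1.63, and Taok1, a kinase, -1.07. Bcl2, an inhibitor of cell death, had 56, 48 and 34 reads and then 1, 4 and 1, a log2 fold change of -2.07 (SE 0.49). Bcl2 passed the filter only through the Ago2 IP, where it was high. Whether Actb, ND4, Rev3l, Rsrp1 and Taok1 would have passed on the enriched libraries alone is not reported here. Xiap, an inhibitor of caspases, had 101, 93 and 101 reads and then 5, 14 and 6, a log2 fold change of -1.13, and was led by miR-17-5p. These values are for reads of any miRNA, in enriched libraries mostly filled by miR-181. Among reads of other miRNAs alone, Xiap had -0.005 (SE 0.35), ND4 -0.53 (SE 0.35) and Bcl2 -1.61 (SE 0.77), and none of them was called. Rag1 was called lower there too, at -1.41 (SE 0.37). With repeats counted once ND4 had -0.54 and was no longer called (adjusted p = 0.29), and without enriched library 2 Rsrp1 was not (-1.10, adjusted p = 0.15). The other 13 genes of these paragraphs kept their call in every alternative that tested them.

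Of 14 published miR-181 targets in T cells, 5 passed the filter, 1 was called higher and 2 lower, against 15.9% and 4.64% of all genes tested, and the median log2 fold change was -0.21 against -0.05. Dusp5, a phosphatase of the kinase ERK, was the higher one at 1.95 (SE 0.43), with 33 reads and then 24, of which 20 were miR-181 and 18 of these lay at chr19:53537477-53537537. Dusp5 would not have passed the filter on the Ago2 IP libraries alone. Bcl2 and Xiap were the lower ones, and 3 and 5 of their enriched reads were miR-181. Among reads of other miRNAs alone, 4 of the 14 passed the filter, with 0 higher and 0 lower, against 2.14% and 0.534% of all spans there. Dusp6, Ptpn22 and Ptpn11, phosphatases that act below the T cell receptor, did not pass the filter and had 2, 4 and 1 miR-181 reads in the 3 enriched libraries together.

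Of 25 genes of T cell receptor signalling, 15 passed the filter, 2 were called higher and 0 lower, with a median of 0.06. Over all 797 spans 15.9% were higher and 4.64% lower, with a median of -0.05, so the count for this list is near the background. The higher ones were Cd4 and Cd8a, the co-receptor of cytotoxic T cells, at 1.30 (SE 0.25). Themis, a thymocyte protein of receptor signalling with the most reads of the list, had -0.29 (SE 0.15, adjusted p = 0.19). Of 12 genes of the miRNA machinery, 5 passed, 2 were called higher and 0 lower, with a median of 0.55, against the same 15.9%, 4.64% and -0.05 over all spans. Ago2 itself had 82 reads and then 33, all 33 of them miR-181, a log2 fold change of 1.1 (SE 0.33), and Tnrc6a, a scaffold of silencing complexes, had 0.67 (SE 0.23). Of 13 mitochondrially encoded messages 6 passed, 0 were higher and 1 lower, ND4, with a median of -0.24, beside 15.9% higher, 4.64% lower and -0.05 over all spans. Counts this small say little about either list.

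Reads named miR-181 alone show whether the enrichment returned the miR-181 targets of the knockout Ago2 IP in the same proportions. The Ago2 IP libraries held only 803, 940 and 750 such reads. Over both groups 16 gene spans passed the filter and 4 (25%) were called, 3 higher (18.8%) and 1 lower (6.25%), while library sizes alone gave 3 higher and 0 lower. Smg6 had 2, 1 and 0 miR-181 reads in the Ago2 IP and 103, 126 and 66 after the enrichment, or 0.118% ± 0.125 and 1.14% ± 0.22 of the miR-181 reads (log2 fold change 2.85, SE 0.66, edgeR adjusted p = 8.73e-04). Idh3g had 0, 2 and 3 and then 104, 155 and 50, at 2.12 (adjusted p = 0.00399). Rn18s-rs5, a copy of the 18S ribosomal RNA whose copies cannot be told apart here, had 1, 2 and 1 and then 75, 127 and 47, a log2 fold change of 2.14 (adjusted p = 0.00507). Ptprc, the phosphatase CD45, was lower at -1.35 (adjusted p = 0.0178), with 4, 4 and 6 and then 18, 48 and 12. Smg6, Idh3g and Rn18s-rs5 would not have passed the filter on the Ago2 IP libraries alone, nor Ptprc on the enriched ones alone. Each entered the test through the group where it was high, so these calls describe the libraries and give no independent support.

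These 4 calls depended on the filter and on single libraries. With a filter of 30 reads in all, 106 spans were tested and 7 called, 7 higher and 0 lower. Without enriched library 1 or library 3, and with libraries 2 and 3 as 1 sample, 2 spans or fewer were tested and 0 called, and 1 was called without enriched library 2. Without Ago2 IP library 2, 1 was called, and Smg6 and Idh3g each had an adjusted p of 0.054. Ptprc was not called without any of the 3 Ago2 IP libraries in turn. The other 12 spans were not called, among them Cd4 at -0.80 (SE 0.38), Pik3r1 at 0.48 (SE 0.51), Atrx at 0.17 (SE 0.45) and Gm4258 at -0.35 (SE 0.39), errors that leave changes of about a factor of 2 undetected.

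Across the enriched libraries miR-181 reads lay on 5648 genes, and 260 genes had at least 3 in each library. Of the 12 with the most, hairpin Mir181a-2 led with 185, 424 and 132 reads, 2.62% ± 0.441 of the miR-181 reads, but 98.5% of them repeated another line. Smg6 followed with 1.14% ± 0.22, Idh3g with 1.1% ± 0.102, Rn18s-rs5 with 0.91% ± 0.0369, Gm4258 with 0.856% ± 0.117, Atrx with 0.739% ± 0.275 and Cd4 with 0.725% ± 0.18 (n = 3). Mir181a-2 lay above Smg6 in every library, Smg6 and Idh3g overlapped, and Rn18s-rs5, Gm4258, Atrx and Cd4 each overlapped with the next in this order. Pik3r1, Mbnl1, Zfand3, Ptbp3 and Prkch completed the 12, between 0.598% and 0.411%. The span of Gm4258 lies on chromosome 1 from 137898464 to 137963020, next to the deleted miR-181a-1 sequence, which starts at 137966468, and its largest site in the enriched libraries lay at chr1:137959623-137959807.

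Reads named for the single family members were not spread alike over these genes, although the division of reads among members is uncertain. In the pooled enriched libraries miR-181a held 45.6% of all miR-181 reads, b 19.3%, c 22.2% and d 12.8%. On Pik3r1 the 3 libraries had 40, 45 and 26 reads of a, 9, 16 and 9 of b, 2, 2 and 1 of c, and 2, 0 and 0 of d. On Smg6 a held 77.6% of 295 reads. The mean of c and d was compared with the mean of a and b, with the library as a block, and 3 of 15 spans (20.0%) were called, 0 higher (0.0%) and 3 lower (20.0%). Library sizes alone called 1 higher and 2 lower, and DESeq2 1 and 3. The direction of the calls depended on which spans and libraries entered: 4 were higher and 3 lower without hairpins, 5 and 4 over all spans, and 4 and 5 with enriched libraries 2 and 3 as 1 sample. Pik3r1 had a log2 difference of -3.50 (SE 0.46, edgeR adjusted p = 3.83e-10), Smg6 -1.37 (SE 0.31, adjusted p = 1.77e-04) and Gnai2, a G protein subunit, -1.01 (SE 0.27, adjusted p = 0.0152). Smg6 was not called without enriched library 1 (-0.88, adjusted p = 0.17), and Gnai2 was not in 7 of 11 alternatives. With hairpins left out and a filter of 30 reads, 91 spans were tested and 9 called, 1 higher and 8 lower, which included Ccr7, a chemokine receptor, Btg2, an antiproliferative protein, and Tpr, a nuclear pore protein.

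A second split, b and d against a and c, was added after the member counts had been seen, so that it describes these libraries and is no independent test of the pattern that prompted it. It follows the sequences above, since b and d share A9U, C10U and A21G relative to a. Because b is close to d, and a to c, the split within each pair is the less certain part. Of 91 spans with at least 30 reads, 27 (29.7%) were called, 9 higher (9.89%) and 18 lower (19.8%). Cd4 stood at the b and d end. Its 3 libraries had 30, 60 and 31 reads of b and 17, 20 and 12 of d, against 2, 11 and 2 of a and 1, 2 and 1 of c, a log2 difference of 4.48 (SE 0.28; adjusted p from edgeR, 1.69e-19). B held 64.0% and d 25.9% of the miR-181 reads on Cd4, against 19.3% and 12.8% over all genes.

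Other genes with an excess of b and d were Emsy at 3.29, Cd8a at 2.14, Nusap1, a spindle protein, at 1.69, Atrx at 1.42, Gm4258 at 1.42, Satb1, a chromatin organiser of thymocytes, at 0.94, Kmt2c, a histone methyltransferase, and Rn18s-rs5. On Cd8a, a had 4, 9 and 2 reads, b 6, 6 and 1, c 2, 2 and 1, and d 7, 10 and 3. Atrx had 40, 35 and 10 reads of b against 14, 23 and 6 of a.

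Idh3g stood at the a and c end. Its 3 libraries had 59, 74 and 29 reads of a and 37, 64 and 15 of c, against 6, 13 and 2 of b and 2, 4 and 4 of d, a log2 difference of -1.94 (SE 0.25). Prps2 had -2.09, Ptbp3 -1.32, Prkch, a protein kinase C, -1.24 and Mbnl1, a splicing regulator, -1.20. Sfpq, a splicing factor, had -4.01 on 39 reads, Ddit4, an inhibitor of mTOR signalling, -3.75 on 35 and Mcl1, an inhibitor of cell death, -3.50 on 31. Smg6, on which b, c and d were all sparse, was called as well, at -0.84.

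With library sizes alone 8 spans were higher and 24 lower, and without enriched library 2 only 29 spans were tested, with 4 higher and 2 lower. Cd4, Emsy, Cd8a, Atrx, Gm4258, Nusap1, Rn18s-rs5, Idh3g, Sfpq, Ddit4 and Mcl1 kept their call in the alternatives that tested them.

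**Figure D4:**
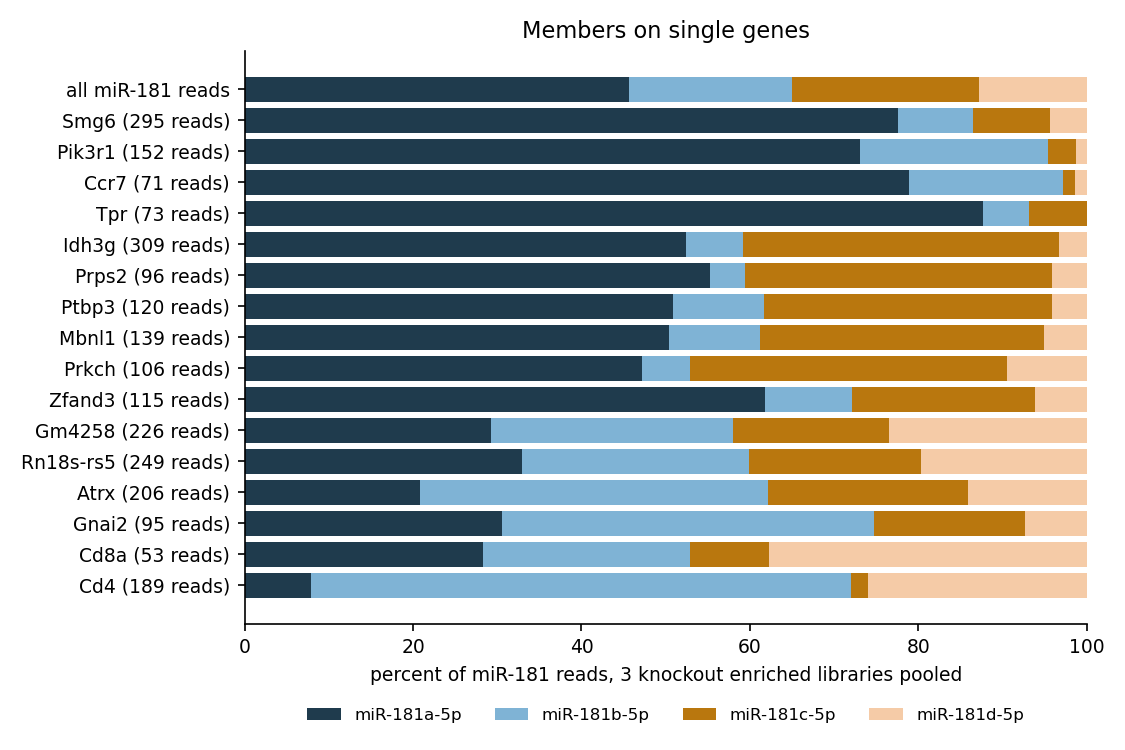
Bars give the share of each miR-181-5p member, in percent, among the miR-181 reads of a gene span in 3 pooled knockout enriched libraries, with the number of reads beside each name. Against 45.6% of a and 19.3% of b over all reads, Smg6 shows 77.6% of a and Cd4 64.0% of b.

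The last comparison took only reads of other miRNAs per gene span and asked which targets came along without miR-181. Of 562 spans tested, 15 (2.67%) were called, 12 higher (2.14%) and 3 lower (0.534%), and the groups did not overlap for 126 (22.4%). Library sizes alone gave 15 higher and 1 lower, with a median log2 fold change of -0.04 against -0.22. With enriched libraries 2 and 3 as 1 sample, 8 were higher and 4 lower.

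Ribosomal RNA was among the higher ones. Rn18s-rs5 had 329, 316 and 241 reads of other miRNAs in the Ago2 IP and 93, 106 and 25 after the enrichment, or 0.497% ± 0.0445 and 1.98% ± 0.624 (n = 3) of other-miRNA reads, and its log2 fold change was 1.88 (SE 0.11; adjusted p from edgeR, 4.03e-50). Mt-Rnr1, the mitochondrial 12S ribosomal RNA, had 0.272% ± 0.00428 and 0.720% ± 0.103, a log2 fold change of 1.19 (SE 0.19), and was not called without enriched library 1 (0.65, adjusted p = 0.36) or library 2 (0.74, adjusted p = 0.34). Outside ribosomal RNA the mitochondrial genome took 0.800% ± 0.0866 and 1.1% ± 0.113 of other-miRNA reads.

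Some miRNAs were read on their own hairpins. Reads on Mir18 were all miR-18a-5p, 23, 41 and 16 in the Ago2 IP and 12, 19 and 5 after the enrichment, a log2 fold change of 2.72 (SE 0.38, adjusted p = 2.27e-10), although 83.3% of the enriched reads repeated another line. Mir7-1 had 2, 5 and 1 reads and then 3, 2 and 3, at 3.77, and Mir30d 8, 8 and 0 and then 2, 5 and 1, at 2.83. These hairpins, Mir18 included, would not have passed the filter on the Ago2 IP libraries alone, so they entered through the group where they were high. Over 64 such hairpins, reads of a miRNA on its own hairpin made up 0.265%, 0.402% and 0.199% of other-miRNA reads in the Ago2 IP and 0.889%, 1.14% and 1.07% after the enrichment, with no overlap (exact p = 0.1). The mean difference was 0.743 percentage points, and 0.497 with repeats counted once.

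For the other higher spans described here the leading miRNA of the Ago2 IP is named. On Taf1d, a subunit of an RNA polymerase I factor, miR-24-3p held 63.2% of the Ago2 IP reads, and the span had 13, 15 and 10 reads and then 5, 14 and 7, a log2 fold change of 3.31 (SE 0.44, adjusted p = 1.68e-11), with 67.6% of all its enriched reads repeats. Taf1d passed the filter only through the enriched libraries, where it was high. Marchf7, a ubiquitin ligase led by let-7g-5p, had 2.63 (SE 0.43), and Lrwd1, led by let-7d-5p, 2.85. Lrch4 and Fam78a, both led by let-7a-5p, had 1.73 and 1.07, and Slc38a10, led by miR-142a-3p, 1.83. Whether the spans named after Taf1d would have passed the filter on the Ago2 IP libraries alone is not reported here. Without enriched library 2, 3 spans were called, all higher, and Marchf7 was not among them (1.93, adjusted p = 0.15). Lrwd1 was not called without enriched library 2 or library 3. Lrch4, Fam78a, Slc38a10 and Mir30d were called in none of the 3 fits that left out an enriched library.

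Themis, Rag1 and Gm4258 were lower. Themis had 301, 345 and 286 reads of other miRNAs and then 15, 14 and 6, a log2 fold change of -0.86 (SE 0.20, adjusted p = 0.0075), while miR-181 added 109 reads on it in the enriched libraries. Rag1 had -1.41 (SE 0.37) and Gm4258 -0.78 (SE 0.17). None of these was called without enriched library 2, at -1.24, -1.71 and -1.25. Gm4258 was not called without Ago2 IP library 1 either (-0.65, adjusted p = 0.054), and with library sizes alone only Rag1 was. Both Themis and Rag1 are thymocyte markers, and of 13 such markers 7 passed the filter here, with 0 higher and 2 lower, against 2.14% and 0.534% of all spans, and a median of -0.33 against -0.22.

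The share of other-miRNA reads at wild-type miR-181 sites did not overlap between the groups. At 6819 sites with at least 10 reads in the wild-type enriched libraries, other miRNAs placed 10.4%, 10.1% and 10.2% of their reads in the knockout Ago2 IP and 13.8%, 13.4% and 12.4% in the knockout enriched libraries, a mean of 10.2% ± 0.13 against 13.2% ± 0.736 (exact p = 0.1, and 0.1 adjusted over 9 shares). In the wild type the same share was 11.7% ± 0.201 and 19.4% ± 0.857; the sites were chosen in those enriched libraries.

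**Figure D5:**
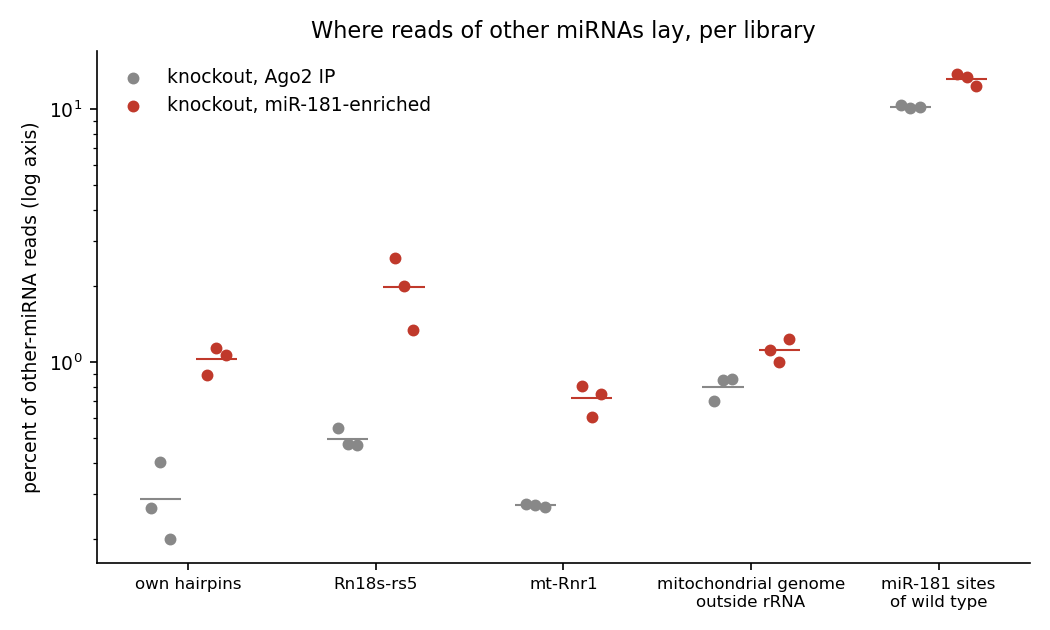
Share of other-miRNA reads, in percent on a log axis, on the miRNAs' own hairpins, on 2 ribosomal RNA spans, on the rest of the mitochondrial genome and at miR-181 sites of the wild type. Points are single knockout libraries and lines are means of 3; the groups do not overlap in any of the 5, with own hairpins at 0.289% and 1.03% on average.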

How the data were processed

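Chimeric reads of thymocyte miR-eCLIP libraries made by a company from 20 µg of RNA each and sequenced as paired reads were taken from files of 12 libraries, 3 in each group. The authors deposited unscaled counts per library, where a line stands for 1 chimeric read and gives a position of 1 nt, the strand and the miRNA. The submitters' processing notes name the builds mm10 and GRCm38.p6 and Bowtie2 2.4.5, SAMtools 1.11, STAR 2.7.10, UMI-tools 1.1.1 and bedtools 2.30.0, with no role; whether repeats were removed by molecular identifiers is not given in the sources used here. All lines were kept. Intervals and floors (3 reads) cover counting error only.

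Reads were assigned to RefSeq GRCm38.p6 spans, giving precedence to miRNA hairpins and after these to protein-coding genes, where only 1 such span held the read. Reads at most 20 nt apart were joined into sites. Coordinates are 1-based. Counts per miRNA and per span went into edgeR 4.0.16 under R 4.3.3, with TMM scaling, its quasi-likelihood test and a filterByExpr minimum of 10, and Benjamini-Hochberg adjusted p-values up to 0.05 were called. This minimum is not a read count for each library. The filter scaled it to the median library size and compared it with reads relative to library size. A few reads could therefore meet it in a small library. In the miR-181 fit, for example, Ptprc passed through its 4, 4 and 6 Ago2 IP reads. The filter asked for the scaled minimum in as many libraries as a group held, from either group. A miRNA or span could therefore enter a fit through the group where it was high. DESeq2 1.42.0 was an alternative. For shares and ratios a two-sided permutation test was enumerated exactly (scipy 1.17.1, Python 3.11.15). The edgeR fits were tested on simulated counts. The members, gene lists and tests were chosen with earlier results of these data known. Named genes and miRNAs are, per fit, the 8 of smallest p in each direction whose groups did not overlap and whose log2 fold change was 1 or more in size, the 12 genes with most miR-181 reads, the 5 most abundant other miRNAs and list members; others with a value were named after their values were seen. The values of some genes that these rules name are not reported here. The filter of 30 reads, the split of b and d against a and c, member ratios and the shares among other-miRNA reads were added after the data were seen. Alternatives were other scaling or filters, repeats counted once, other span rules and each library left out.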

Additional observations from a re-analysis of the deposited data

How the results depend on the processing

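The shares of each miR-181 member and of the family, the total and the member ratios kept their direction in every alternative run, with 5 of 6 ratios free of overlap. The mitochondrial share of all reads, -0.243 percentage points in the enriched libraries, was 0.0224 with repeats counted once, and the hairpin share went from 2.15 to 0.184 points. Whether sample numbers pair the libraries was not settled. Correlations of same-numbered libraries ran from 0.0443 to 0.251 for other miRNAs and from 0.024 to 0.0765 for their gene spans. Libraries of different numbers gave -0.211 to 0.146 and -0.0809 to 0.0548. Over gene spans of any miRNA the ranges did not overlap, 0.0431 to 0.0751 for the same number and -0.0723 to 0.0103 otherwise. With the replicate block 11 miRNAs, 7 other miRNAs, 160 gene spans, 4 miR-181 spans and 14 other-miRNA spans were called. Over all miRNAs, 21 calls became 13 with a filter of 30 reads, 13 with repeats counted once, 90 with library sizes alone (miR-20a-5p turned to -1.58) and between 8 and 24 with a library left out. Outside the family 12 became 7 with repeats counted once and between 4 and 19. Gene span calls lay between 124 (DESeq2) and 237 (no filter). Of miR-181 spans, 4 became 7 with the 30-read filter, 21 with no filter (Ptprc turned to 0.92), 0 with enriched libraries 2 and 3 as 1 sample and between 0 and 4. Other-miRNA spans went from 15 to 78 with no filter (Fam78a turned to -0.013) and between 3 and 12. For c and d against a and b, 3 calls, all lower, became 9 over all spans (5 higher, 4 lower), 9 with libraries 2 and 3 as 1 sample (4 and 5), 5 with no filter (0 and 5), 7 without hairpins (4 and 3), 9 with the 30-read filter too (1 and 8) and between 2 and 4. The filters changed how many spans were tested; the cause was otherwise not tested. The 3 Ago2 IP libraries held 2493 miR-181 reads, and 16 spans passed the filter, which was applied over the 6 knockout libraries together.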

Other observations

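Reads of the remaining family members also lay on their own hairpins in the knockout. On Mir181a-2 they lay at chr2:38852759-38852763, the last bases of mature miR-181a-5p, which runs from 38852741 to 38852763, with 17, 19 and 10 reads in the Ago2 IP. Mir181b-2 had 0 reads in each Ago2 IP library and 21, 25 and 7 in the enriched ones, 84.9% of them repeats, at chr2:38853863-38853867, within miR-181b-5p. On Mir181c and Mir181d, which lie on the minus strand of chromosome 8, the reads lay outside the mature sequence shown above, at chr8:84178886-84178909 with 34 miR-181c reads and at chr8:84178721-84178742 with 29 miR-181d reads, on the side of the 3′ arm. Repeats made up 44.4% and 58.6% of the reads on these 2 hairpins.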
